A study of Arabidopsis thaliana with 6 samples.

Results

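The SPL (SQUAMOSA PROMOTER BINDING PROTEIN-LIKE) genes described here are the 10 transcription factor genes SPL2, SPL3, SPL4, SPL5, SPL6, SPL9, SPL10, SPL11, SPL13A and SPL15, chosen by gene identifier from the 17 SPL genes among the 33602 genes listed in the deposited tables. RNA was sequenced from seedlings of Col-0 wild type (WT, replicates 2, 4 and 5) and of acinus-2 pinin-1 plants (replicates 6, 7 and 12), here called the mutant, 12 days old by the labels and grown in continuous light. The study's own text gives an older age for these seedlings, and which of them holds could not be settled from the files. The mutant carries a T-DNA in AtACINUS (AT4G39680) and another in AtPININ (AT1G15200), genes for nuclear proteins associated with splicing, and it is 1 line with 1 allele of each gene. The comparison asks how RNA levels and splicing differ when both proteins are disrupted.

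SPL proteins bind DNA through a plant-specific domain and drive the change from juvenile to adult leaves and, later, to flowering. In young plants the microRNAs miR156 and miR157 pair with SPL transcripts, which are then cleaved or poorly translated. As the plant ages the microRNAs decline and the SPL proteins activate MIR172 genes, the MADS box genes SOC1, FUL and AGL42, the floral identity genes LFY and AP1, and the trichome repressors TRY and TCL1. SPL9 also holds back the anthocyanin gene DFR.

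The 12 MIR156 and MIR157 loci of the gene list and those of miR156i and miR156j give 7 different mature sequences of the 5′ arm, or of the only annotated arm, in the RefSeq annotation of the TAIR10.1 assembly. The 3′ arm sequences are not shown. The 7 are shown because their pairing with the SPL transcripts defines the group, with bases 2 to 8, the seed, in capitals.
miR156a to miR156f: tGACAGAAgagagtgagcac
miR156g: cGACAGAAgagagtgagcac
miR156h: tGACAGAAgaaagagagcac
miR156i: tGACAGAAgagagagagcag
miR156j: tGACAGAAgagagagagcac
miR157d: tGACAGAAgatagagagcac
miR157a to miR157c: tTGACAGAagatagagagcac
All the 20-base forms shared the seed GACAGAA. The 21-base form of miR157a to miR157c starts 1 base earlier, so that its seed reads TGACAGA over the same core.

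Every one of the 10 SPL genes held 1 stretch of 20 bases that paired with miR156a with at most 3 mismatches, G:U pairs counted as mismatches. The sites are printed as DNA on the gene's own strand, with capitals at the bases counted as mismatches.
SPL2, SPL6, SPL9, SPL10, SPL11, SPL13A and SPL15: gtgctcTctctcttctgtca
SPL3: TtgctTactctcttctgtca
SPL4: CtgctcTctctcttctgtca
SPL5: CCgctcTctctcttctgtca
The 7 genes with the first sequence had a single mismatch, at base 14 of miR156a counted from its 5′ end. SPL3 had mismatches at base 15, a G:U pair, and base 20, SPL4 at bases 14 and 20, and SPL5 at bases 14, 19 and 20. In SPL2 (chr5:17360758-17360777), SPL6 (chr1:26006731-26006750), SPL9 (chr2:17589066-17589085), SPL11 (chr1:9503618-9503637), SPL13A (chr5:20582738-20582757) and SPL15 (chr3:21444834-21444853) the site lay in the coding sequence. In SPL10 (chr1:9505541-9505560) it lay in the coding sequence or, depending on the transcript, in the 3′ UTR. In SPL3 (chr2:14305878-14305897), SPL4 (chr1:19807090-19807109) and SPL5 (chr3:5140598-5140617), whose predicted proteins have 131, up to 174 and 181 residues against at least 346 in the others, it lay in the 3′ UTR. Among the exons of all 27444 protein-coding genes of the reference, 8 genes (0.0292%) had a match with at most 1 mismatch, which were the 7 genes above and SPL13B, and 13 genes (0.0474%) one with at most 3 mismatches.

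**Figure D1:**
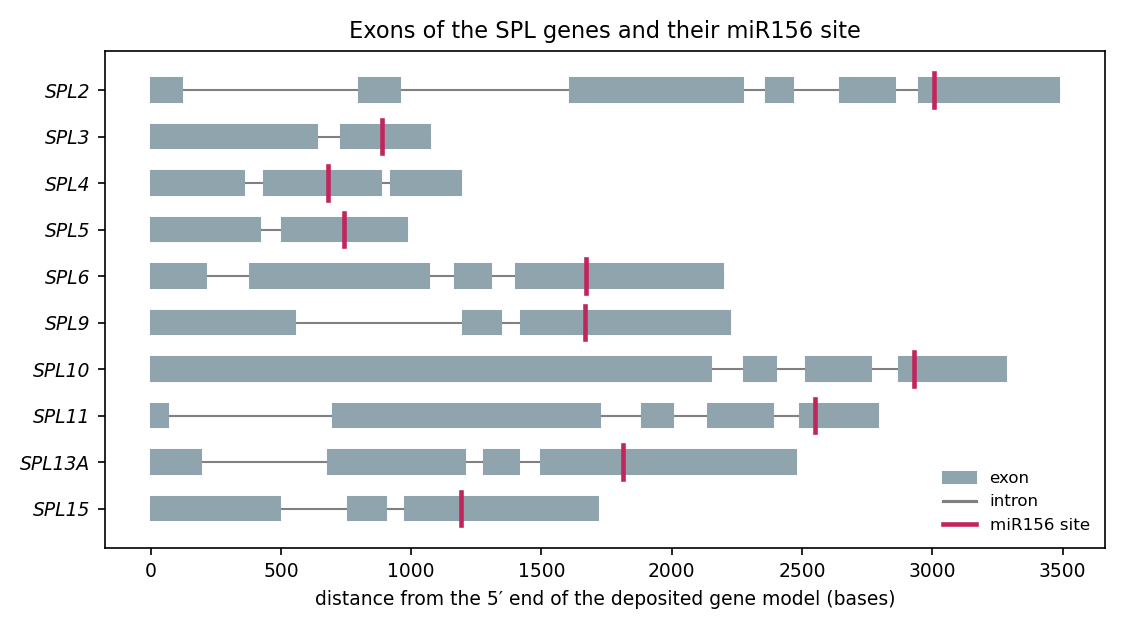
Exons (boxes) and introns (lines) of the 10 SPL genes in the deposited gene models, drawn to scale from the 5′ end in bases, with the miR156 site as a vertical bar. The site lies in the exon nearest the 3′ end in 9 genes and in exon 2 of 3 in SPL4.

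The libraries held 18890178 to 27622690 reads on genes, and the labels' replicates are taken as separate samples. The edgeR tests set the genotype difference against the spread between these samples, estimated with information shared across genes. In AtACINUS, exons 1 to 3 of the deposited model, its 3′ end, had 0 or 1 read in each mutant library and 166 to 746 in WT. In AtPININ, exon 4 had 89 to 131 reads in WT and 27 to 38 in the mutant, and exon 1, at the 3′ end, had 554 to 680 in WT and 1406 to 1826 in the mutant. Markers checked the labelled tissue. All 3 green tissue markers were present at a summed 10360 to 10496 CPM (reads scaled to library size by TMM, the trimmed mean of M values) in WT and 7633 to 7854 in the mutant, and the floral markers summed to 0.448 to 0.679 CPM over the 6 libraries. Of these, PI was higher in the mutant (2 to 7 reads in WT and 10 to 13 in the mutant, 2.90-fold, edgeR adjusted p = 0.0134), and AP1, AP3 and AG, not tested, had 0 to 4 reads, with every mutant library below WT in CPM for AP1 and AG. All 4 root markers were lower in the mutant (summed level 32.8 to 37.3 CPM in WT and 13.1 to 15.3 in the mutant), and the shoot meristem genes STM and KNAT1 were higher (list sum 16.5 to 18.1 against 28.1 to 30.3), with the stem cell markers WUS and CLV3 at 0 to 3 reads. The part of these shifts in the levels below was not tested. In whole seedlings, fewer cells of a type and less RNA per cell cannot be told apart.

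Per length, the SPL genes were of low abundance and spread over a narrow range. In WT, SPL2 had the highest level, at 7.13 ± 0.627 RPKM (SD, n = 3), a level scaled to exon length and to all mapped reads. SPL10 (3.88 ± 0.0683 RPKM), SPL11 (3.87 ± 0.642) and SPL3 (3.35 ± 0.400) followed, and each overlapped the next in its WT range, as SPL3 did with SPL6 (3.12 ± 0.297). SPL13A (2.53 ± 0.174 RPKM) and SPL9 (2.39 ± 0.445) overlapped each other, and SPL9 also overlapped SPL6 while SPL13A lay below it. SPL15 (1.60 ± 0.275 RPKM), SPL4 (1.30 ± 0.155) and SPL5 (1.098 ± 0.370) were lowest, with overlap between neighbours. In the mutant SPL2 was again first (6.73 ± 0.0634 RPKM) and SPL15 was last (0.443 ± 0.213). SPL13A rose from rank 6 to rank 2 (4.37 ± 0.316), and SPL11 went from rank 3 to rank 8 (1.81 ± 0.176). The mutant range of SPL11 overlapped those of SPL3, SPL4, SPL6 and SPL9, and that of SPL15 overlapped SPL5. The level of SPL13A draws on bases shared with SPL13B, as described below. Summed over the 10 genes, the level was 29.5 to 30.7 RPKM in the WT libraries and 25.1 to 25.8 in the mutant libraries.

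Between genotypes, 5 of the 10 SPL genes were lower in the mutant (SPL3, SPL6, SPL10, SPL11 and SPL15) and 1 was higher (SPL13A) at an adjusted p under 0.02 in edgeR's quasi-likelihood test. Among all 20962 genes tested, 19.4% were lower and 18.0% higher by the same rule. With a fold change above 2 in addition, 2 SPL genes were lower (SPL11 and SPL15) and 0 higher, against 4.88% and 4.29% of all genes. All 10 passed the filter on low counts. Their median log2 fold change was −0.49, and that of all tested genes was 0.00. Mutant libraries were all below WT for the same 5 lower genes and all above WT for SPL13A and SPL4, where 28.2% and 27.0% of all genes tested separate in each direction.

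**Figure D2:**
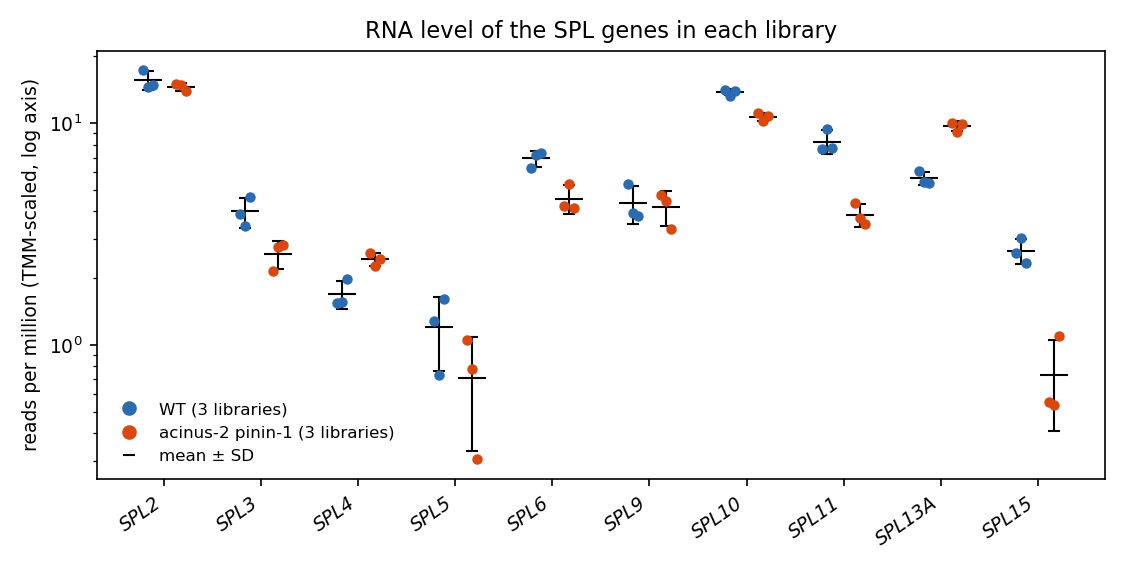
CPM (log axis) of the 10 SPL genes in the 3 WT (blue) and 3 acinus-2 pinin-1 (orange) libraries, with mean ± SD in black. The genotypes separate downward in SPL3, SPL6, SPL10, SPL11 and SPL15 and upward in SPL4 and SPL13A, and overlap in SPL2, SPL5 and SPL9.

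SPL9 and SPL15 encode closely related proteins that slow leaf initiation and promote adult leaf traits and flowering. SPL15 (AT3G57920, chr3:21444243-21446035) had 2.59, 3.04 and 2.35 CPM in WT replicates 2, 4 and 5 and 0.553, 0.534 and 1.102 in mutant replicates 6, 7 and 12. The highest mutant library was thus below the lowest WT library, and replicate 12 stood above the other mutant libraries. The level was 3.54-fold lower in the mutant (log2 fold change −1.82 ± 0.27 SE, edgeR adjusted p = 0.000167), the largest change among the 10 genes. SPL9 (AT2G42200, chr2:17587169-17589671) had 5.34, 3.94 and 3.81 CPM in WT and 4.75, 4.47 and 3.34 in the mutant. The ranges overlapped (log2 fold change −0.05 ± 0.17 SE, adjusted p = 0.837 by edgeR). Within each library, the ratio of SPL15 to SPL9 was 0.485, 0.771 and 0.618 in WT and 0.116, 0.120 and 0.330 in the mutant. The ratios did not overlap between genotypes, with a two-sided exact permutation p of 0.10, the smallest that 3 against 3 libraries allow. The adjusted p of this test was 0.125 over 5 pairs of SPL genes, which were picked after the values were seen.

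Reads of SPL15 were unevenly lower along the gene. Its 5′ exon (exon 3 of the deposited numbering, which follows the chromosome) had 16, 25 and 21 reads in WT and 1, 1 and 6 in the mutant, and its 3′ exon with the miR156 site had 32.5, 47.4 and 37 against 10.11, 10 and 21. The 5′ exon therefore took 30.5% ± 0.747 (SD, n = 3) of the exon reads in WT and 11.8% ± 6.04 in the mutant. This exon was singled out after its values were seen, and its change relative to the gene (log2 −1.02) had an unadjusted p of 0.0446 in edgeR and an adjusted p of 1. Reads spliced across the SPL15 introns were 5, 3 and 4 in WT and 0, 1 and 3 in the mutant. RefSeq places AT3G57910 on the opposite strand across the span of SPL15, with exons over all 1377 exon bases of SPL15. The kit's strand is not stated, so reads over these bases cannot be told apart between the genes. The levels, ratios and exon shares of SPL15 carry this limit. AT3G57910 itself had 3.81 to 5.84 CPM in WT and 3.88 to 4.63 in the mutant, so its level overlapped between genotypes.

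SPL2, SPL10 and SPL11 form another closely related set, known for adult leaf shape and trichome patterns. SPL11 (AT1G27360, chr1:9500892-9504023) had 7.63, 9.46 and 7.73 CPM in WT and 4.39, 3.74 and 3.49 in the mutant. Each mutant library was near the others and far below WT, a 2.15-fold lower level (log2 fold change −1.10 ± 0.13 SE, edgeR adjusted p = 3.08e-05). Without WT replicate 4 the estimate was −0.99, just inside a fold of 2, with an adjusted p of 0.000152 in edgeR. SPL10 (AT1G27370, chr1:9505112-9508542), its neighbour on the chromosome, had 14.2, 13.3 and 14.0 CPM in WT and 11.1, 10.2 and 10.8 in the mutant. The groups did not overlap, and the change was smaller than in SPL11 (log2 fold change −0.36 ± 0.08 SE, edgeR adjusted p = 0.00215).

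SPL2 (AT5G43270, chr5:17360287-17363880) had 17.3, 14.5 and 14.9 CPM in WT and 15.1, 14.9 and 13.9 in the mutant. WT replicate 2 was the highest and the other libraries were mixed (log2 fold change −0.09 ± 0.08 SE, adjusted p = 0.430 by edgeR). The ratio of SPL11 to SPL10 within a library was 0.538, 0.712 and 0.553 in WT and 0.395, 0.365 and 0.324 in the mutant. The ratio of SPL11 to SPL2 was 0.440, 0.650 and 0.519 in WT and 0.291, 0.251 and 0.251 in the mutant. Neither ratio overlapped between genotypes (two-sided exact permutation p = 0.10, the smallest possible, and adjusted p = 0.125 for each). Spliced reads of SPL11 fell in the same way, with 22, 47 and 52 in WT and 15, 9 and 17 in the mutant, and those of SPL10 were 38, 60 and 51 against 27, 29 and 36.

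SPL3, SPL4 and SPL5 encode the small proteins of the family, which act with the florigen pathway to switch on floral identity genes. SPL3 (AT2G33810, chr2:14305001-14306072) had 3.90, 3.45 and 4.67 CPM in WT and 2.15, 2.77 and 2.81 in the mutant. The genotypes did not overlap, although the gap between them was small (log2 fold change −0.63 ± 0.17 SE, edgeR adjusted p = 0.00971). The adjusted p by edgeR was 0.0571 without WT replicate 5, 0.0372 without mutant replicate 6 and 0.0209 without mutant replicate 7, so this call rests on single libraries. Between 90.4% and 97.6% of its reads were marked in the files as counted for several genes or places, without saying which. The span of an antisense RNA gene, AT2G33815, listed at 0 reads, covers nearly all of SPL3. Without strand the reads of SPL3 and of its antisense partner cannot be told apart, and the reads spliced over the SPL3 intron, 7, 4 and 3 in WT and 2, 5 and 3 in the mutant, overlapped.

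SPL4 (AT1G53160, chr1:19806263-19807705) went the other way, with 1.55, 1.57 and 1.98 CPM in WT and 2.61, 2.28 and 2.43 in the mutant. All mutant libraries were above WT, but the adjusted p of 0.0407 by edgeR missed the threshold (log2 fold change 0.51 ± 0.19 SE). The ratio of SPL4 to SPL3 was 0.397, 0.456 and 0.424 in WT and 1.21, 0.825 and 0.865 in the mutant. It did not overlap between genotypes (two-sided exact permutation p = 0.10, adjusted p = 0.125), with the limit on SPL3 reads just given. SPL5 (AT3G15270, chr3:5140365-5142323) had 1.29, 0.729 and 1.61 CPM in WT and 1.05, 0.777 and 0.305 in the mutant. Its libraries scattered widely within each genotype (log2 fold change −0.79 ± 0.41 SE, adjusted p = 0.133 by edgeR), on 8 to 43 reads per library. SPL5 lies within the span of AT3G15260 on the opposite strand, which had 18.6 to 20.9 CPM over the 6 libraries. Exons of that gene cover 477 exon bases of SPL5, and reads over these bases cannot be told apart without strand.

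SPL6 (AT1G69170, chr1:26005068-26007368), best known from immune receptor signalling, had 6.30, 7.16 and 7.35 CPM in WT and 4.25, 5.34 and 4.14 in the mutant. The genotypes did not overlap (log2 fold change −0.61 ± 0.13 SE, edgeR adjusted p = 0.00200). Its spliced reads were 13, 17 and 20 in WT and 11, 8 and 13 in the mutant, which also separated once scaled to library size.

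SPL13A (AT5G50570, chr5:20582083-20584721) was the only one of the 10 genes that was higher, with 6.08, 5.45 and 5.39 CPM in WT and 10.04, 9.13 and 9.91 in the mutant. The groups were tight and well apart (1.73-fold higher, log2 fold change 0.79 ± 0.10 SE, edgeR adjusted p = 4.8e-05). SPL13 proteins promote adult leaf traits and flowering, and the gene has a duplicate, SPL13B (AT5G50670). Over the 4 exons the deposited models of the pair aligned at 1497 bases, and all 1497 were identical, so reads from these bases cannot be assigned between them. SPL13A has 338 further exon bases in its deposited model, and at most 0.567% of its reads and 0% of those of SPL13B were marked in the files as counted for several genes or places. SPL13B had 6.14, 5.67 and 5.82 CPM in WT and 10.2, 10.2 and 9.61 in the mutant, and the ratio of the pair stayed between 0.891 and 1.03 in all 6 libraries. That ratio draws on the shared bases, so it cannot show whether each gene changed. The sum of the pair was 12.2, 11.1 and 11.2 CPM in WT and 20.2, 19.4 and 19.5 in the mutant (log2 fold change 0.78 ± 0.07 SE, edgeR adjusted p = 3.22e-06).

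**Figure D3:**
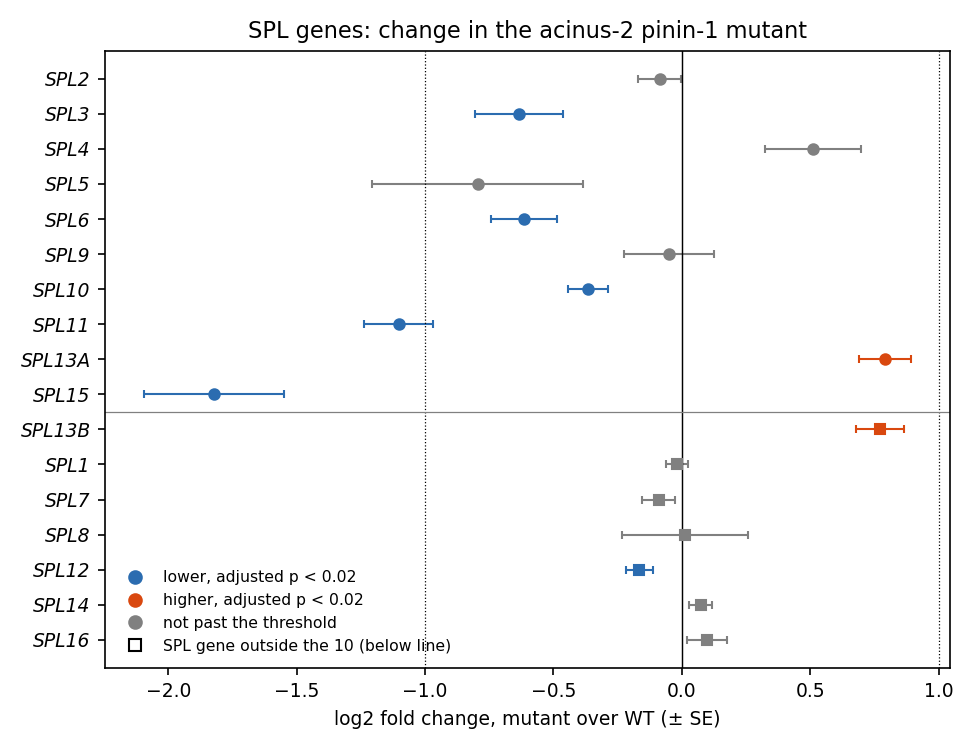
Log2 fold change, mutant over WT, with SE derived from the edgeR test. The 10 SPL genes are circles above the line and the other 7 SPL genes are squares. Colours mark adjusted p under 0.02 (blue lower, orange higher), and dotted lines mark a fold of 2. SPL15 lies farthest to the left at −1.82 and SPL13A farthest to the right at 0.79.

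Of the other SPL genes, which apart from SPL13B carry no match to miR156a within 3 mismatches, SPL12 was lower by a small margin (65.2, 68.5 and 66.6 CPM in WT and 57.7, 59.2 and 61.7 in the mutant, log2 fold change −0.17 ± 0.05 SE, edgeR adjusted p = 0.0192). It passed only just, and it did not pass with RLE size factors in edgeR (adjusted p = 0.0207) or in DESeq2 (adjusted p = 0.0476). SPL1, SPL7, SPL8, SPL14 and SPL16 did not pass, and their log2 fold changes lay between −0.09 and 0.10. The median over the 7 was 0.01.

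The microRNA genes were read only as precursor transcripts, since mature microRNAs are not measured in these libraries. MIR156C, which with MIR156A is the main source of miR156 in Arabidopsis seedlings, had 16, 29 and 28 reads in WT and 41, 49 and 70 in the mutant. Scaled to library size this was 0.854, 1.11 and 1.05 CPM in WT and 1.87, 2.38 and 2.66 in the mutant, and all mutant libraries were above WT. The level was 2.27-fold higher in the mutant (log2 fold change 1.19 ± 0.22 SE, edgeR adjusted p = 0.000970), and every fit with 1 library left out kept an adjusted p of at most 0.00643. MIR157C had 0.694, 0.957 and 1.31 CPM in WT and 1.87, 1.12 and 1.75 in the mutant, which overlapped (log2 fold change 0.65 ± 0.28 SE, adjusted p = 0.0783 by edgeR).

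The other precursors were too low for the filter. MIR157A had 1, 1 and 2 reads in WT and 5, 2 and 7 in the mutant. MIR156A had 3, 6 and 4 reads in WT and 8, 2 and 4 in the mutant, so a change in it was not detectable at this depth. MIR156B, MIR156D, MIR156F and MIR157B had 0 to 3 reads in a library, and MIR156E, MIR156G, MIR156H and MIR157D had 0 in all 6. Of the 12 precursors, 2 were tested, 0 were lower and 1 was higher, against 19.4% lower and 18.0% higher of all genes tested. The 5 MIR172 precursors, a group that includes targets of SPL proteins, all stayed at 0 to 5 reads and were not tested.

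Of 8 genes known to be regulated by SPL proteins, 5 were tested, 3 were lower (TRY, AGL42 and SOC1), 1 was higher (DFR) and 1 did not pass, with a median log2 fold change of −1.30. By the same rule 19.4% of all genes tested were lower and 18.0% higher. This list, like the others, was chosen with earlier results of these data known, so its count is no test of the pathway. TRY, a repressor of trichome initiation, had 1.23, 1.84 and 1.34 CPM in WT and 0.183, 0.146 and 0.190 in the mutant. This was an 8.29-fold lower level (log2 fold change −3.05 ± 0.35 SE, edgeR adjusted p = 2.01e-05) resting on 3 to 5 reads in each mutant library.

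SOC1, a floral integrator, had 13.8, 16 and 17.1 CPM in WT and 6.90, 6.31 and 5.89 in the mutant (log2 fold change −1.30 ± 0.10 SE, edgeR adjusted p = 9.83e-07). AGL42, a relative of SOC1 that promotes flowering, had 2.40, 2.76 and 2.95 in WT and 1.097, 0.679 and 0.722 in the mutant (log2 fold change −1.71 ± 0.23 SE, edgeR adjusted p = 7.54e-05). For both, the genotypes were far apart. DFR, the anthocyanin gene that SPL9 holds back, had 12.5, 10.11 and 11.9 CPM in WT and 38.4, 30.4 and 44.0 in the mutant, 3.28-fold higher (log2 fold change 1.71 ± 0.13 SE, edgeR adjusted p = 5.13e-07). FUL, named after its values were seen, narrowly missed the threshold (1.01, 0.766 and 1.27 against 0.366, 0.679 and 0.456 CPM, edgeR adjusted p = 0.0224). AP1, LFY and TCL1 had 0 to 11 reads in a library and were not tested.

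**Figure D4:**
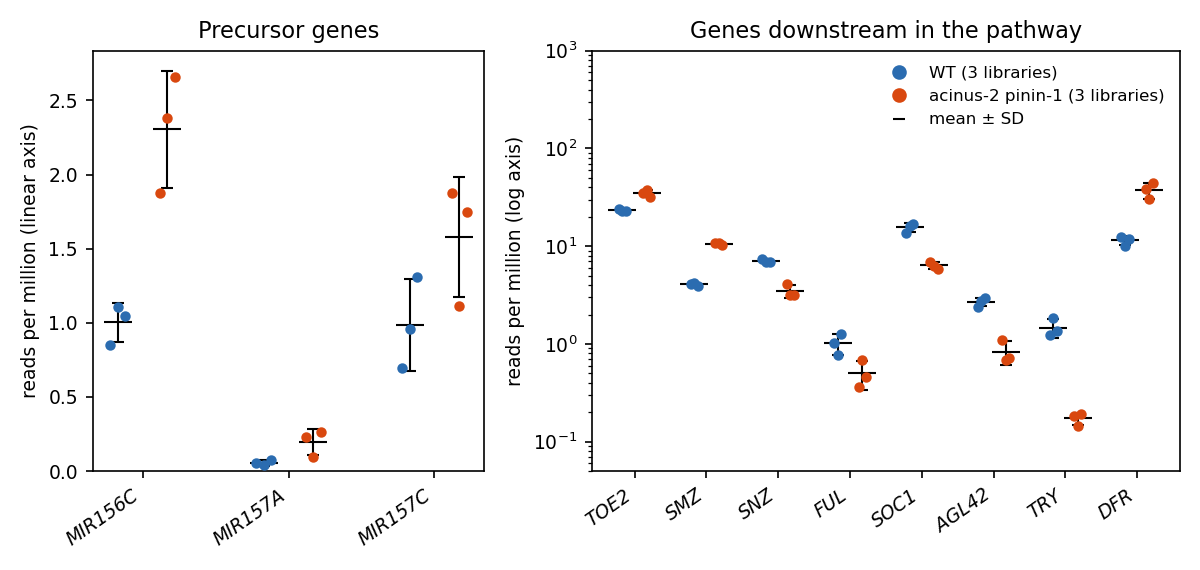
CPM in the 3 WT (blue) and 3 acinus-2 pinin-1 (orange) libraries, with mean ± SD, for precursor genes of miR156 and miR157 (left, linear axis) and for AP2-like and SPL-regulated genes (right, log axis). MIR156C, SMZ, TOE2 and DFR were higher in the mutant and SNZ, SOC1, AGL42 and TRY lower at an adjusted p under 0.02, which FUL and MIR157C did not reach. MIR157A was not tested.

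The AP2-like genes, floral repressors that miR172 holds back, moved in both directions. Of 6 tested, 2 were higher (SMZ and TOE2), 2 lower (SNZ and AP2) and 2 did not pass, where 18.0% of all genes tested were higher and 19.4% lower. SMZ had 4.11, 4.17 and 3.92 CPM in WT and 10.8, 10.8 and 10.3 in the mutant (log2 fold change 1.38 ± 0.10 SE, edgeR adjusted p = 4.45e-07). Its close relative SNZ had 7.47, 6.97 and 6.83 in WT and 4.11, 3.15 and 3.19 in the mutant (log2 fold change −1.02 ± 0.13 SE, edgeR adjusted p = 5.07e-05). The pair thus had opposite signs, each with no overlap between genotypes. TOE2 was 1.503-fold higher (edgeR adjusted p = 3.27e-05) and AP2 was lower by a small margin (log2 fold change −0.21, edgeR adjusted p = 0.0126).

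Among 12 regulators of MIR156A and MIR156C, such as Polycomb and chromatin remodelling proteins and sugar sensors, 1 was lower, 0 were higher and 11 did not pass, with a median log2 fold change of 0.05. The lower gene was TPS1, the synthase of the sugar signal trehalose 6-phosphate, with 50.7, 51.4 and 53.9 CPM in WT and 40.0, 38.2 and 41.0 in the mutant (log2 fold change −0.39 ± 0.06 SE, edgeR adjusted p = 0.000125). Among 7 microRNA processing genes 1 was lower, ABH1, a subunit of the nuclear cap binding complex, with 35.5, 38.9 and 36.5 CPM in WT and 28.3, 28.7 and 30.7 in the mutant (log2 fold change −0.34 ± 0.06 SE, edgeR adjusted p = 0.000902). DCL1, SE, HYL1, AGO1, HST and HEN1 did not pass. For both lists the shares over all genes tested were 19.4% lower and 18.0% higher.

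Splicing of the SPL genes was then compared, with the exon that holds the miR156 site as the first item. The site exon of SPL15 took 57.8% ± 2.79 (SD, n = 3) of the gene's exon reads in WT and 77.5% ± 10.3 in the mutant, the counterpart of its low 5′ exon, with an unadjusted p of 0.219 in edgeR. In the other SPL genes the site exon had an unadjusted p of 0.132 or higher in edgeR. In SPL11 it took 10.6% ± 3.66 (SD, n = 3) of the exon reads in WT and 8.23% ± 3.64 in the mutant, in SPL10 16.7% ± 2.94 and 14.9% ± 2.40, and in SPL6 39.8% ± 5.52 and 48.8% ± 6.78. Of the 36 exons of the 10 genes, all were tested and 0 were called by edgeR at an adjusted p under 0.05, and 2 had an unadjusted p under 0.05, against 0.0322% of all 117951 exons called. One of these was exon 3 of SPL4, next to the site exon, with 3, 3 and 7 reads in WT and 1, 0 and 3 in the mutant (unadjusted p = 0.00719, adjusted p = 1 by edgeR).

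The site is present in 1 of the 3 RefSeq transcripts of SPL4. The junction that removes it, from inside exon 2 to exon 3, was read 2 times in the WT libraries together and 1 time in the mutant libraries together. RefSeq also has the gene of miR156i on the opposite strand over the SPL4 site, and that of miR156j over the SPL9 site. Reads of these overlapping genes, which were not analysed here, cannot be told apart from those of SPL4 and SPL9 without strand.

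Of the 26 introns of the 10 genes, 13 had enough reads to test. None was called in edgeR, with 4 at an unadjusted p under 0.05, while 0.862% of all 25534 introns tested were called as more retained in the mutant and 0.0548% as less. The intron with the most reads was intron 2 of SPL2 (chr5:17361129-17361308, 180 bases), with 43, 34 and 34 reads in WT and 37, 27 and 30 in the mutant. Only 1, 8 and 11 reads were spliced across it in WT and 5, 5 and 11 in the mutant. Per base it stood at 56.3% ± 16.2 (SD, n = 3) of its neighbouring exons in WT and 50.9% ± 12.5 in the mutant, with overlap between genotypes (log2 change relative to the exons −0.13 ± 0.31 SE, adjusted p = 0.925 by edgeR).

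Next to the miR156 site, intron 3 of SPL6 had 9, 5 and 10 reads in WT and 1, 3 and 1 in the mutant (unadjusted p = 0.0181, adjusted p = 0.307 by edgeR). Intron 1 of SPL10 had 1, 3 and 5 reads in WT and 1, 0 and 0 in the mutant (unadjusted p = 0.0497, adjusted p = 0.448 by edgeR). Both had less intron RNA in the mutant, on few reads. The other introns with an unadjusted p under 0.05 lie nearest the 5′ end of their genes and are named after their values were seen. Intron 5 of SPL2 had 9, 5 and 6 reads in WT and 2, 1 and 2 in the mutant (unadjusted p = 0.0178, adjusted p = 0.304 by edgeR). Intron 1 of SPL11 had the opposite sign, with 1, 4 and 5 reads in WT and 5, 4 and 7 in the mutant (unadjusted p = 0.00963, adjusted p = 0.235 by edgeR).

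Of 55 junctions, 23 were tested, from SPL2, SPL6, SPL9, SPL10, SPL11 and SPL13A, and 0 were called by edgeR, with 1 at an unadjusted p under 0.05, against 0.0983% of all 100709 junctions called. That junction joins exon 4 of SPL2 to its 5′-most exon 6, with 16, 20 and 13 reads in WT and 13, 7 and 4 in the mutant (unadjusted p = 0.0490). The alternative from exon 4 into exon 5, with a splice site 84 bases inside that exon, had 1, 2 and 3 reads in WT and 6, 8 and 4 in the mutant (unadjusted p = 0.0573). The adjusted p by edgeR was 1 for each, and both were named after their values were seen. No junction of SPL4 and SPL15 was tested, and SPL3 and SPL5 have a single intron each. Of alternative donors and acceptors, 1 event in the 10 genes was tested, this one in SPL2, and it was not called by Fisher's exact test in the 9 library pairs, against 0.221% of 3621 events in all genes.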

How the data were processed

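RNA-seq libraries of WT and acinus-2 pinin-1 seedlings, 3 each, were assigned to genotypes from the GEO labels. Mapping was done by the authors, who aligned reads to TAIR10 and tabulated them with RACKJ. Its version was not given in the sources used here. At the gene, exon and intron level the deposited values are expected counts, in which a read of several genes is split, and the junction tables hold whole counts of spliced reads, all made by the authors. The deposited RPKM divides by exon length and by all mapped reads. A deposited fraction gives the share of reads counted for several genes or places. The labels' notes also name STAR and DESeq2.

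Expected counts were rounded and tested across all genes in edgeR 4.0.16 (R 4.3.3) with TMM scaling, filterByExpr and Benjamini-Hochberg adjustment. Lower or higher means an adjusted p under 0.02. Each SE is the absolute log2 fold change divided by the square root of the F statistic of edgeR's test. Exon and junction use (at least 10 reads over the libraries) were tested with diffSpliceDGE, and introns against the reads of the neighbouring exons, each spliced read counted once. An intron was called at an adjusted p under 0.05, a fold above 2, an RPKM above 1 and a level above 5% of the exons. Donor and acceptor events needed a Fisher p under 0.05 in all 9 library pairs. On simulated data, 175 of 200 genes changed 2-fold were recovered with 5 false calls. Recovery was 179 of 200 exons raised 3-fold, 154 of 200 junctions raised 4-fold and 197 of 200 introns raised 4-fold. These had at least 30, 15 and 10 reads per library on average. Most introns and junctions tested in the SPL genes had fewer, as did many of their exons, so their recovery was not measured. Among these exons were the site exons of SPL3, SPL4, SPL5, SPL11 and SPL15. The exon, junction and intron simulations also used a set spread between libraries, not one estimated from these data. Alternatives were RLE scaling, DESeq2 1.42.0, no filter, other thresholds, removal of shared reads, SPL13A and SPL13B summed, and each of the 6 libraries left out.

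All 10 SPL genes are named. Of the microRNA precursors those with reads are named, and of other lists the genes past the call and at most 4 with the largest change. The genes and lists were chosen with earlier results of these data known, and the ratios of 5 gene pairs after the values were seen. Sequences and gene positions come from RefSeq, TAIR10.1, whose nuclear coordinates match TAIR10, and all 10 genes were matched by identifier. Mismatches to miR156a were counted by letter on the sense strand. Protein identities were not computed.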

Additional observations from a re-analysis of the deposited data

How the results depend on the processing

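No paired analysis was possible because WT and mutant libraries share no replicate number in the labels. With 1 library left out in turn, 4 to 5 SPL genes were lower and 1 was higher. In the same fits log2 fold changes ranged from −0.74 to −0.50 for SPL3 and from −0.15 to 0.10 for SPL9, which changed sign without WT replicate 2 (0.10) and without mutant replicate 12 (0.10), as SPL8 did without WT replicate 2 (−0.08), mutant replicate 6 (−0.07) or mutant replicate 12 (−0.08), over a range of −0.082 to 0.17. At an adjusted p under 0.05, 2 SPL genes were higher, SPL4 (0.51) joining SPL13A, and 13 rather than 8 genes of the other lists were lower. Tested against a fold of 2, no SPL gene passed the threshold (0 lower, 0 higher), with the same log2 estimates for SPL3 (−0.63), SPL6 (−0.61), SPL10 (−0.36), SPL11 (−1.10), SPL13A (0.79) and SPL15 (−1.82, edgeR adjusted p = 0.0375). Against that fold 0 microRNA precursors were higher, and 1 gene of the other lists was lower and 2 were higher. With reads marked for several genes or places removed SPL3 was not tested, since nearly all its reads are so marked. RLE scaling, DESeq2, no filter and the summed SPL13 genes changed no call among the 10. The 0 exon, intron, junction, donor and acceptor calls among the 10 genes held under every alternative run for them. AP2 lost its call in DESeq2 (adjusted p = 0.0554) and without any 1 library, and SPL12 in DESeq2 (0.0476), RLE scaling (0.0207), without a filter (0.0246) and without WT replicate 4 or 5 or mutant replicate 6 or 7. Neither passed against a fold of 2. Introns and junctions with under 10 reads over the libraries were not tested, nor was the only SPL4 junction above that number, which left 13 of 26 introns and 23 of 55 junctions.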
